A study of Bos taurus with 2 samples.

Results

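The 4 myogenic regulatory factors MYF5, MYOD1, MYOG (myogenin) and MYF6 (MRF4) were followed through cultured bovine satellite cells, together with how often their transcripts were found in the same cell. They were chosen by symbol and are 4 of the 21867 genes in the deposited gene list, with the identifiers ENSBTAG00000026972 for MYF5, ENSBTAG00000002216 for MYOD1, ENSBTAG00000006030 for MYOG and ENSBTAG00000014003 for MYF6. The cells came from skeletal muscle of 1 Holstein bull calf aged 2 weeks and had grown for 1 week in DMEM with fetal bovine serum, without any treatment or genetic change. From these same cells 2 single-cell RNA libraries were made, called replicates 1 and 2, so there was 1 group. The spread between replicates and every p-value describe the draw of cells, library preparation and sequencing only. The study sorted the cells into 15 clusters to ask how uniform such cultures are. It called clusters 4, 5 and 8 satellite cells, clusters 1, 2, 3 and 12 stages of myoblasts and myocytes, and clusters 7 and 9 fibro-adipogenic progenitors.

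The myogenic regulatory factors are basic helix-loop-helix proteins that bind DNA as dimers with E proteins and switch on muscle genes. In postnatal muscle, stem cells known as satellite cells express PAX7, and MYF5 and MYOD1 mark their activation and proliferation as myoblasts. MYOG is known for driving the exit into differentiation, and MYF6 is best known from differentiated muscle fibres.

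Transcripts were counted as UMIs, molecular tags that count each captured RNA molecule, near the 3′ end of the RNA, so levels are compared between cells for 1 gene and not between genes. A level is given as UMIs of a gene per 10000 UMIs of a cluster in each library. The 9939 cells of replicate 1 and the 9157 cells of replicate 2 held medians of 14626 and 15206 UMIs, and 27 cell barcodes occurred in both libraries. Clusters 7, 13, 14 and 15 were shallow, with medians from 647 to 2513.5 UMIs per cell, and cluster 10 had a median of 5398.5. Cluster 9 had the fibro-adipogenic receptor gene PDGFRA detected in 73.6% of its cells at 10000 UMIs. It served for comparison, as the study found no enrichment of MYF5, MYOD1 or MYOG there. Whether its cells lack the factors was not tested, and the study left their origin undetermined. The summed level of a list of 11 fibro-adipogenic markers was not high there, at 56.8 and 58.2 against 79.3 and 79.4 over all cells. That sum mostly follows the collagens COL1A1 and COL3A1, which had 943846 and 988649 UMIs against 8883 for PDGFRA. PDGFRA itself had its highest mean level in cluster 9, at 1.58 (1.63 and 1.53). Cluster 7 overlapped with it, at 1.48 (1.23 and 1.74), and had a summed marker level of 337 and 343. The satellite cell marker PAX7 was scarce, with its highest level among clusters holding more than 1 of its UMIs being 0.0112 in cluster 4. SOX10, FOXD3 and ITGAM had 0 UMIs and PTPRC had 1.

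All 4 factors were detected in both libraries, at very different depths of counting. MYF5 had 14260 UMIs in replicate 1 and 12704 in replicate 2, and 52.7% of the 19096 cells held at least 1 (95% exact interval 51.9 to 53.4%, which covers counting error only). MYOD1 had 60717 and 54165 UMIs and was found in 75.0% of the cells, with a median of 6 UMIs in a positive cell. MYOG had 30590 and 29384 UMIs in 31.6% of the cells, and its counts ran from 1 UMI, as in 39.9% of the positive cells, to 111 in a single cell. MYF6 had 1407 and 1233 UMIs in 11.7% of the cells, and 86.1% of its positive cells held 1 UMI. A cell without a UMI of MYF6 or MYF5 is therefore not shown to lack the transcript.

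MYF5 was highest in clusters 8 and 1 and lowest in cluster 9. Its level in cluster 8 was 1.64 in replicate 1 and 1.49 in replicate 2, and in cluster 1 it was 1.60 and 1.5, so that these clusters overlapped. Cluster 5 followed with 1.24 ± 0.0363 (SD, n = 2 libraries), below cluster 1 in both libraries. Clusters 14, 4, 11 and 15 lay between 1.13 and 1.05, and clusters 6 and 3 at 0.878 ± 0.0139 and 0.873 ± 0.113. Clusters 13, 7 and 2 had 0.733, 0.726 and 0.702, cluster 10 had 0.609 ± 0.0101 and cluster 12 had 0.574 ± 0.0778. Cluster 9 had 0.135 and 0.126, which put the highest level 12-fold above the lowest. Of the 14 steps from a cluster to the next lower one, only 4 separated the libraries, namely 1 from 5, 15 from 6, 2 from 10 and 12 from 9. The step from 15 to 6 rested on 23 MYF5 UMIs in cluster 15. The order of levels is a description, since the clusters had been made from the same counts.

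MYOD1 ran in a different order, with its highest levels in clusters 13, 2 and 3. Cluster 13, with 675 MYOD1 UMIs in shallow cells, had 7.0 and 6.50, cluster 2 had 7.02 and 6.42, and cluster 3 had 6.52 and 6.18, and these ranges overlapped. Cluster 6 had 5.75 ± 0.444, cluster 10 had 5.60 ± 0.224 and cluster 1 had 5.18 ± 0.164. Cluster 12 followed at 3.96 ± 0.187, with cluster 15 at 2.98 ± 0.802, cluster 4 at 2.71 ± 0.00838, cluster 14 at 2.69 ± 0.246 and cluster 7 at 2.46 ± 0.323. The lower end was formed by cluster 5 with 1.92 ± 0.0144, cluster 11 with 1.30 and 1.41, cluster 8 with 0.892 ± 0.0137 and cluster 9 with 0.571 ± 0.151. The libraries were apart in 8 of the 14 steps, including all of those from cluster 7 down. The range was 11.8-fold, and cluster 8, which was highest for MYF5, was the lowest cluster for MYOD1 apart from cluster 9.

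MYOG had the steepest pattern. Cluster 12 had levels of 18.1 and 19.2 and cluster 3 had 6.61 and 6.76, and together these clusters held 38.5% and 39.4% of all MYOG UMIs with 3.28% and 10.7% of the cells. Cluster 15 came next with 4.93 and 3.06, from 85 UMIs. Clusters 7, 14, 10 and 13 had 1.75, 1.72, 1.44 and 1.21, cluster 2 had 1.09 ± 0.103, cluster 1 had 0.877 ± 0.103 and cluster 6 had 0.720 ± 0.144. Clusters 4, 5, 11 and 8 had 0.135, 0.119, 0.109 and 0.107, below cluster 9 at 0.260 ± 0.0898. Without the 8% of cells in each library that a doublet caller, Scrublet, scored highest, cluster 9 came to 0.102 and 0.0959. This was under cluster 4 (0.12 and 0.111) and cluster 5 (0.113 and 0.114). MYOG in these clusters was thus near its level in cluster 9, and their order against cluster 9 turned with the cells left out. In the same setting MYOG in cluster 6 was at 0.522 and 0.295, and the levels of MYF5, MYOD1 and MYF6 in cluster 9 came down to 0.0537, 0.2 and 0.0114. The libraries were apart in 9 of 14 steps, and the range was 173-fold.

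MYF6, the rarest of the 4, was spread over nearly all clusters. Its highest mean, 0.214 in cluster 15, rested on 5 UMIs with levels of 0.105 and 0.322, and cluster 14 had 0.174 and 0.161 from 23 UMIs. Among the deep clusters, cluster 12 had 0.151 and 0.133, cluster 2 had 0.135 and 0.113, and clusters 1 and 4 each had 0.121 and 0.106. Clusters 11, 6, 13 and 3 had 0.1, 0.0942, 0.0910 and 0.0802, and clusters 8, 5, 7 and 10 had 0.0774, 0.0744, 0.0622 and 0.0619. Cluster 9 stood lowest with 0.0197 and 0.0156. Without cells under 2000 UMIs, cluster 13 was at 0.169. Only 3 of the 14 steps separated the libraries, 14 from 12, 13 from 3 and 10 from 9, so apart from the low value of cluster 9 the order was mostly within the spread of the libraries. The step from 13 to 3 rested on 9 MYF6 UMIs in cluster 13. The median SD, as a percentage of the mean over clusters, was 12.3% for MYF6, against 4.65% for MYF5, 5.24% for MYOD1 and 7.17% for MYOG.

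**Figure D1:**
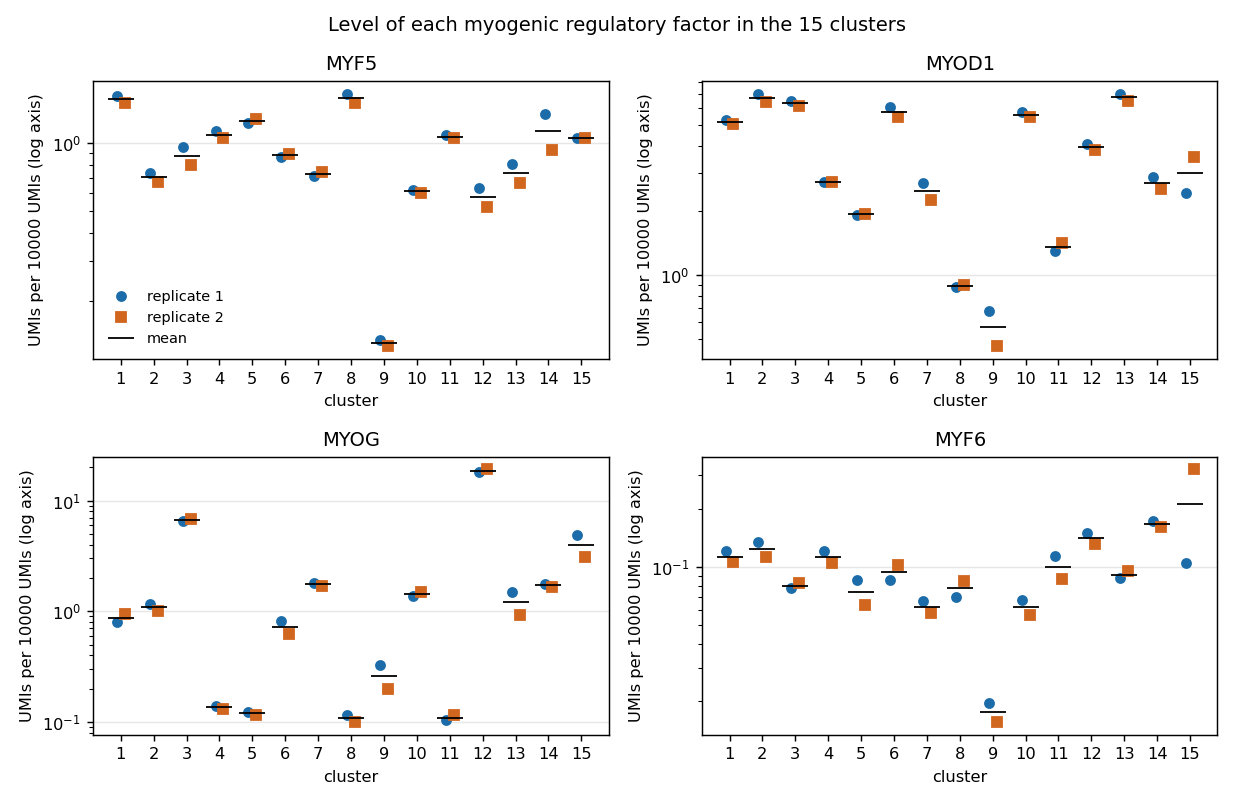
Level of each factor (UMIs per 10000 UMIs, log axis) in clusters 1 to 15, with circles for replicate 1, squares for replicate 2 and a dash for their mean. MYOG spans 173-fold and peaks in cluster 12, while MYF5, MYOD1 and MYF6 span 12-fold, 11.8-fold and 12.1-fold and are lowest in cluster 9.

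The factors differed between the clusters in unlike ways. From cluster 8 to cluster 1, MYF5 stayed at 0.990 times its level while MYOD1 was 5.81-fold and MYOG 8.15-fold higher. From cluster 1 to cluster 3, MYF5 was at 0.562 and MYF6 at 0.708 times the earlier level, MYOD1 was at 1.23 times and MYOG was 7.65-fold higher. From cluster 3 to cluster 12, MYF6 was 1.77-fold higher, but a few cells held much of it, and the 614 cells of cluster 12 with fewer than 3 MYF6 UMIs were at 0.0968 and 0.0915 against 0.0782 and 0.0822 in cluster 3. These ratios of levels have no test, for the reason given above. Clusters 2 and 4, and clusters 6 and 11, also differed, with MYOD1 2.48-fold higher in cluster 2 than in cluster 4 and 4.25-fold higher in cluster 6 than in cluster 11. MYF5 went the other way, with cluster 2 at 0.648 times the level of cluster 4 and cluster 6 at 0.826 times that of cluster 11.

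The genes whose levels followed each factor most closely over the 15 clusters differed between the factors. Likeness was Pearson's r of log2(level + 0.1) over 15 clusters among 9622 genes with at least 500 UMIs, and the points share their cells, libraries and depth. MYF5 was most like CA3, a muscle carbonic anhydrase (r = 0.926), DTNBP1 (0.912) and FABP7, a fatty acid binding protein (0.875). MYOD1 was most like GAL, the gene of the neuropeptide galanin (0.942), the growth factor IGF2 (0.922) and SMARCD3, a chromatin remodelling subunit (0.907). MYOG was most like PDLIM3, a Z-disc protein (0.987), the cardiac actin ACTC1 (0.967) and the myosin light chain MYLPF (0.965). MYF6 was most like PPP1R1A (0.875), SUPT3H (0.831) and ETFRF1 (0.825), all 3 highest in cluster 15, where MYF6 had 5 UMIs. Between the factors, Pearson's r was computed otherwise, from log2 of the mean level of the 2 libraries without the added 0.1. It is therefore not comparable with the values above. This r was 0.72 for MYF5 with MYF6 (Spearman's rho 0.24) and 0.60 for MYOD1 with MYOG (rho 0.50). It was −0.13 for MYF5 with MYOG (rho −0.49).

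To compare shares of positive cells at 1 depth, each of the 14672 cells with at least 10000 UMIs was thinned at random to 10000 UMIs. This left out nearly all cells of clusters 7, 13, 14 and 15 and kept 171 of the 1010 cells of cluster 10. MYF5 was then found in 48.3% of the cells, MYOD1 in 76.9%, MYOG in 28.8% and MYF6 in 8.50%. In cluster 9 these shares were 8.90%, 23.7%, 11.7% and 1.60% (17.3%, 38.1%, 23.6% and 4.07% before thinning, at a median of 23011 UMIs). Leaving out the cells with the highest Scrublet scores lowered the shares of cluster 9 to 5.20%, 15.3%, 9.20% and 1.43%. MYF5 was found in 65.1% of cluster 8 cells, 63.8% in cluster 1 and 32.7% in cluster 12. MYOD1 was found in 97.8% of cluster 3, 96.7% of cluster 2, 94.6% of cluster 6, 94.0% of cluster 1 and 93.0% of cluster 12, and in 41.3% of cluster 8. In the 171 cells of cluster 10, MYOD1 was found in 94.2% and MYOG in 40.2%. MYOG reached 99.5% of cluster 12, 71.5% of cluster 3, 30.4% of cluster 2, 27.4% of cluster 1 and 20.8% of cluster 6. Its 10.3%, 10.2%, 10.1% and 8.85% in clusters 11, 4, 5 and 8 lay close to its share in cluster 9. They were below that share with all cells and, but for cluster 8, above that share without the highest Scrublet scores. MYF6 lay between 6.82% in cluster 5 and 10.8% in cluster 2 among the other deep clusters, all above the share in cluster 9.

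Most cells carried more than 1 factor. Of the 14672 thinned cells, 27.0% held MYF5 and MYOD1 without MYOG, 23.8% held MYOD1 alone of these 3, 15.3% held MYOD1 and MYOG, 10.8% (1582 cells) held all 3 and 11.1% held none. MYF5 alone was found in 9.37%, MYOG alone in 1.45% (212 cells) and MYF5 with MYOG in 1.23% (181 cells). MYOG was thus rarely found without MYOD1. The leading combination differed between clusters, with MYF5 alone in 34.7% of cluster 8, MYF5 with MYOD1 in 44.6% of cluster 1, and MYOD1 alone in 38.4% of cluster 2. MYOD1 with MYOG led in cluster 3 (41.7%) and cluster 12 (62.0%), where a further 28.6% and 30.5% held all 3, and 65.1% of cluster 9 held none.

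Joint detection was set against the number of cells expected if 2 genes were independent within 10 depth groups, which split the cells of each library by total UMIs into equal numbers, since deeper cells hold more of every gene. MYOD1 and MYOG were found together more often than this expectation, with ratios of observed to expected cells of 1.12 in replicate 1 and 1.12 in replicate 2 (5362 cells against 4783, 95% counting interval 1.09 to 1.15). MYF5 and MYF6 also exceeded it, with 1.19 and 1.17 (1596 cells against 1351, 1.12 to 1.24). MYF5 and MYOG fell short of it, with 0.928 and 0.939 (3235 cells against 3466, 0.902 to 0.966). Ratios closer to 1 were found for MYOD1 with MYF6 (1.05 and 1.06), MYF5 with MYOD1 (1.02 and 1.03) and MYOG with MYF6 (0.984 and 1.04). The ubiquitous genes TBP, HPRT1 and POLR2A gave 1.00 to 1.03 among themselves and 0.963 to 1.02 with the 4 factors. In the cells thinned to 10000 UMIs, MYOG gave 0.945 with TBP, 0.962 with HPRT1 and 0.920 with POLR2A (0.880 to 0.962). A ratio under 1 with MYOG was thus not particular to MYF5 at that depth. PDGFRA gave 0.891 with MYF5, 0.844 with MYOD1, 0.776 with MYOG and 0.812 with MYF6.

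The pairs were affected unequally when clusters were taken into account. With the depth groups formed within each cluster, MYOD1 with MYOG came to 1.02 (counting interval 0.997 to 1.05). Both libraries were above 1, at 1.02 and 1.03 (5362 cells against 5237). The counting interval lets the joint count vary freely, so it is too wide where nearly all cells held 1 of the genes. MYOD1 with MYF6 came to 0.999 and MYF5 with MYOD1 to 0.998. Such ratios with MYOD1 have little room above 1 in clusters where nearly all cells held it, as in clusters 1, 2, 3 and 12. MYF5 with MYF6 kept 1.11 (1.05 to 1.16) and MYF5 with MYOG 0.956 (0.923 to 0.989). Without cluster 9, MYF5 with MYOD1 turned to 0.984 and MYOD1 with MYF6 was 1.01, while MYF5 with MYF6 was 1.11, MYOD1 with MYOG 1.09 and MYF5 with MYOG 0.899. Where at least 2 UMIs of each gene were asked for, the departures grew, to 1.47 for MYF5 with MYF6 (182 cells against 124, 1.27 to 1.70), 1.31 for MYOD1 with MYOG (3301 against 2513) and 0.789 for MYF5 with MYOG (1044 against 1321, 0.743 to 0.840).

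**Figure D2:**
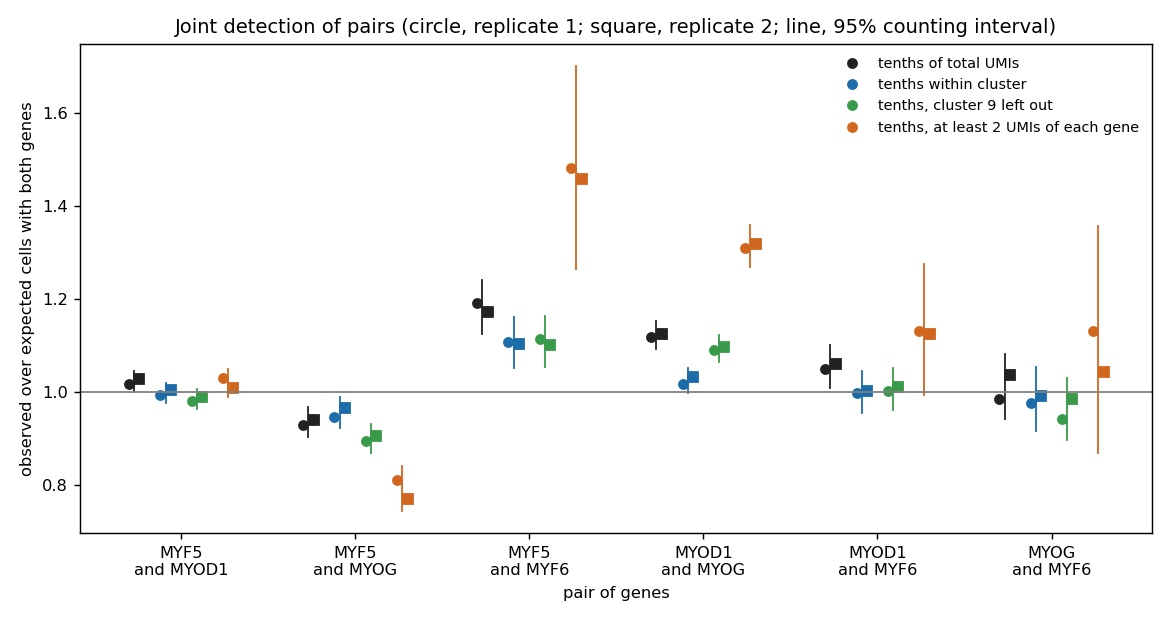
Observed over expected number of cells with both genes for the 6 pairs, under 4 ways of counting (colours), with circles for replicate 1, squares for replicate 2, lines for the 95% counting interval and a grey line at 1. MYF5 with MYF6 lies above 1 and MYF5 with MYOG below 1 in all 4 ways, while MYOD1 with MYOG comes to 1.02 once the depth groups are formed within clusters. That ratio has little room above 1 in clusters where nearly all cells hold MYOD1.

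MYOG was found more often in cells with MYOD1 over all cells and in some single clusters. At equal depth, 90.9% and 90.5% of MYOG-positive cells held MYOD1, against 70.6% and 72.1% of MYOG-negative cells. Conversely, MYOG was found in 33.9% of MYOD1-positive cells and in 11.6% of MYOD1-negative cells. Its share in cluster 9 was 11.7%, or 9.20% without the highest Scrublet scores. Of the MYOG-positive cells without MYOD1, 18.8% were themselves from cluster 9 and 10.7% from cluster 12. In cluster 1, MYOG was found in 28.4% and 28.5% of cells with MYOD1 and in 11.9% and 9.38% of the 59 and 64 cells without it, and in cluster 6 in 21.5% and 21.1% against 11.4% and 12.5% of 44 and 40 cells. Inside clusters 1, 2, 3 and 12 the ratio of observed to expected cells was 1.03, 1.01, 1.00 and 1.00, but with MYOD1 in over 90% of their cells this ratio has little room to exceed 1. It was 1.54 in the shallow cluster 7 (91 cells against 59.0) and 1.11 in cluster 10.

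For MYF5 and MYOG, the shortfall was also seen inside some single clusters, but not in all. In cluster 2 the ratio was 0.900 and 0.908 (414 cells against 458), in cluster 3 it was 0.918 and 0.961 (851 against 908) and in cluster 1 it was 0.944. In cluster 12, where nearly every cell held MYOG, it was 0.998. Clusters 4, 6 and 8 were also under 1 in both libraries, and cluster 5 was split (1.03 and 0.923). The ratio was above 1 in both libraries in cluster 9 (1.07 and 1.22, 72 cells against 63.6) and in the shallow cluster 7 (1.38 and 1.02, 27 against 23.2). The amounts of MYOG moved more than the shares of cells. At equal depth, MYOG in cluster 3 was at 4.63 and 4.84 UMIs per 10000 in cells with MYF5 and at 8.55 and 8.29 in cells without, in cluster 12 at 14.9 and 16.3 against 20.8 and 22.2, in cluster 1 at 0.606 and 0.657 against 1.27 and 1.36, and in cluster 2 at 0.676 and 0.631 against 1.39 and 1.25. In each of these clusters both libraries gave the lower MYOG level in cells with MYF5. Counted from the shallowest to the deepest of the 10 depth groups, the ratio was under 1 in both libraries in groups 3 to 8 (0.790 to 0.920). It was near 1 in group 9 (1.02 and 0.975) and above 1 in group 10 (1.06 and 1.09). These groups mix the clusters, and cluster 9, where MYF5 was lowest, had a median of 23011 UMIs. In group 10 MYF5 with MYOD1 was also above 1 (1.08 and 1.09). Over all depths the ratio of MYF5 with MYOG was 0.899 without cluster 9. The part of cluster 9 in the deepest groups was not tested.

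MYF5 and MYF6 had ratios above 1 in several of the deep clusters. The ratio was 1.14 in cluster 1 (263 cells against 231), 1.18 in cluster 2 (282 against 239), 1.17 in cluster 11 and 1.29 and 1.33 in cluster 12 (75 against 57.2), and it was 1.00 in cluster 8 (88 against 87.8), the cluster with the most MYF5. At equal depth, MYF6 was at 0.122 and 0.107 UMIs per 10000 in cells with MYF5 and at 0.0767 and 0.0733 in cells without. In an assembly other than that of the counts, ARS-UCD2.0, MYF5 and MYF6 are neighbours on chromosome 5. Whether reads of these 2 genes could be confused was not tested. The number of MYF6 UMIs per 100 MYF5 UMIs differed between clusters, from 4.28 and 5.69 in cluster 8 through 7.32 in cluster 1 to 18.3 and 16.9 in cluster 2 and 24.0 and 25.5 in cluster 12.

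Binning cells by their MYF5 UMIs (0, 1, 2 to 3, and 4 or more at equal depth) showed MYF6 and MYOG moving in opposite directions. MYF6 was at 0.0750, 0.0930, 0.125 and 0.164 UMIs per 10000 across these bins, and MYOG was at 2.83, 1.68, 1.10 and 0.683. MYOD1 moved less, from 4.22 and 4.19 to 3.87 and 3.17. Within cluster 3, MYOG was at 8.42, 5.53, 3.99 and 2.93 over the same bins, the last of them with 73 and 29 cells. Within cluster 2, MYF6 was at 0.101, 0.112, 0.159 and 0.396, with 35 and 28 cells in the last bin. In cluster 3 MYF6 did not follow MYF5 step by step, with 0.0804, 0.0761, 0.0865 and 0.172.

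**Figure D3:**
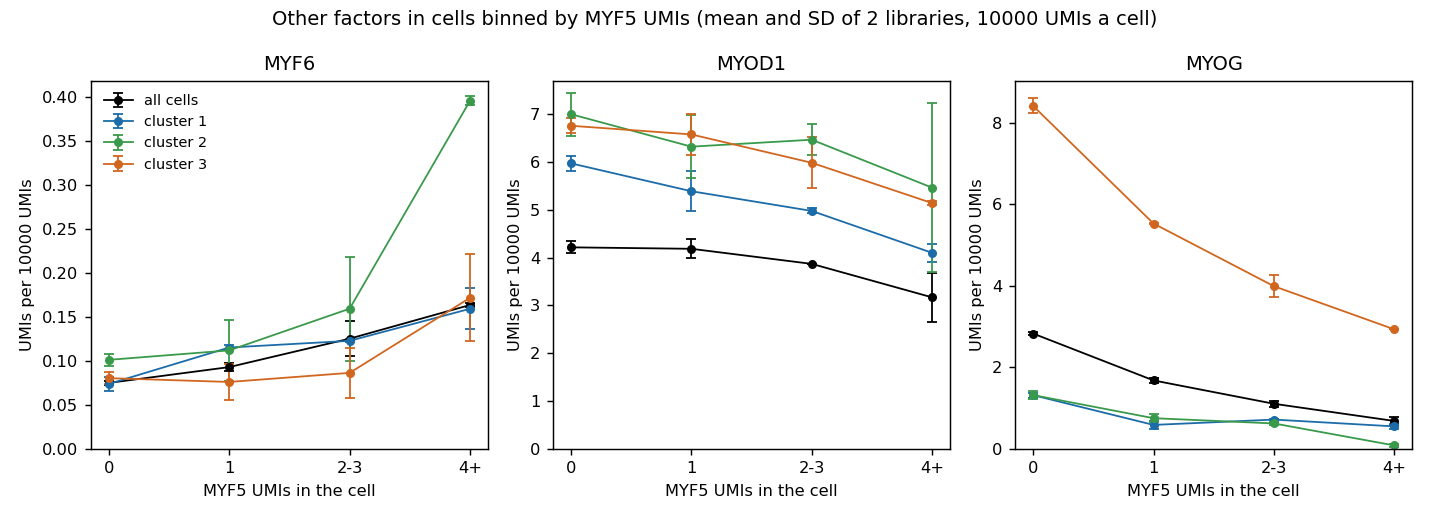
Levels of MYF6, MYOD1 and MYOG (UMIs per 10000 UMIs, mean and SD of the 2 libraries) by the number of MYF5 UMIs in the cell, for all cells and clusters 1, 2 and 3, each cell thinned to 10000 UMIs. Over all cells MYF6 goes from 0.0750 to 0.164 and MYOG from 2.83 to 0.683 between 0 and at least 4 MYF5 UMIs.

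A small set of cells held several MYF6 UMIs. In the deposited counts, 30 cells of replicate 1 and 26 of replicate 2 had at least 3, with 113 and 93 MYF6 UMIs in all. MYF5 was found in 26 and 19 of them, MYOD1 in 28 and 25 and MYOG in 12 and 12. Of these cells, 13 lay in cluster 12 and none in cluster 3. Cluster 2 held 9 and 4 of them, cluster 1 held 4 and 5, cluster 4 held 3 and 4 and cluster 6 held 1 and 5. The 13 cells of cluster 12 all held MYF5, which was found in 46.6% of the other 614 cells of the cluster. Their MYF5 level was 1.64 and 2.21 against 0.603 and 0.482, and the skeletal actin gene ACTA1 was at 135.8 and 65.6 against 16.9 and 16.5, so that the libraries did not overlap for either gene. MYOG went the other way, at 14.1 and 11.9 against 18.2 and 19.3. These 13 cells were somewhat deeper, with a median of 23168 UMIs against 19053.5, and 0 of them were among the highest Scrublet scores, against 21 of the other 614. They held 35 of the 93 MYF6 UMIs of cluster 12 in replicate 1 and 27 of 83 in replicate 2. The variance of MYF6 in cluster 12 was 1.86 and 1.75 times the mean at equal depth, against 0.981 to 1.19 in single libraries of the other clusters. That spread is no separate observation, since the 13 cells were picked by their MYF6 UMIs. This set of cells was singled out after its values were seen, and no test was made.

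The other factors did not change in a single direction as MYOG rose. With cells binned by MYOG UMIs at equal depth, MYF5 was at 1.10 and 1.08 without MYOG and at 0.503 and 0.473 with 8 or more MYOG UMIs. MYOD1 was at 3.54 and 3.43 without MYOG and at 5.69 and 5.42 with 8 or more MYOG UMIs. It was highest between these, at 6.76 and 6.53 with 2 to 3 MYOG UMIs and 6.76 and 6.16 with 4 to 7. The libraries of those 2 bins overlapped. MYF6 stayed between 0.0851 and 0.0997. Over the same 5 bins the summed level of the muscle structure list went from 43.9 through 56.8, 94.6 and 131 to 236 UMIs per 10000. The summed S phase list went from 28.5 to 10.3 and the G2/M list from 65.7 to 26.9. In the highest bin, 48.9% of the cells were from cluster 3 and 38.4% from cluster 12.

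**Figure D4:**
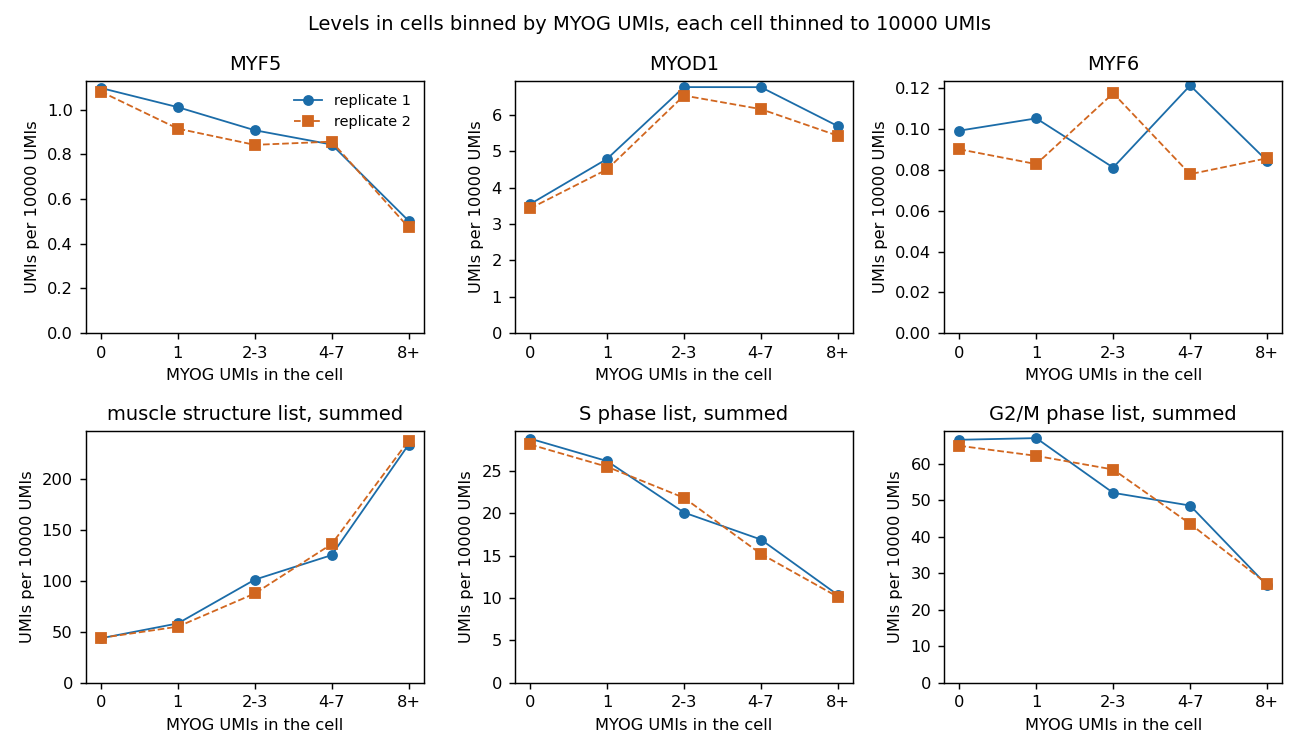
Levels of MYF5, MYOD1, MYF6 and the summed muscle structure, S phase and G2/M lists (UMIs per 10000 UMIs) by the number of MYOG UMIs in the cell, with circles for replicate 1 and squares for replicate 2, each cell thinned to 10000 UMIs. MYOD1 is highest at 2 to 3 and 4 to 7 MYOG UMIs, where the libraries overlap. MYF5 falls from 1.09 to 0.488, and the structure list reaches 236 in the highest bin.

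Cells were then grouped by the factors they held, and all other genes were compared between the groups. UMIs of thinned cells were summed per library and group and compared with edgeR's quasi-likelihood test as 2 sums against 2, with Benjamini-Hochberg adjustment over all genes tested and a call at an adjusted p under 0.05. Genes that defined the groups were not tested.

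Cells with MYF5 and no MYOD1 (823 and 733 cells) were compared with cells with MYOD1 and no MYF5 (2979 and 2762 cells). The former came mostly from clusters 8, 5 and 4 (27.1%, 24.0% and 18.9%), the latter from clusters 2, 3, 6 and 1 (20.6%, 18.4%, 13.4% and 12.5%). MYOG was at 0.365 and 0.216 UMIs per 10000 in the MYF5 cells and at 3.58 and 3.58 in the MYOD1 cells, a log2 difference of −3.61 (SE 0.173, edgeR adjusted p = 2.5e-05). MYF6 was at 0.125 and 0.0928 against 0.0853 and 0.0822, higher in the MYF5 cells in both libraries without passing the test (log2 0.38, SE 0.157, edgeR adjusted p = 0.114), and it passed with the library as a block (adjusted p = 0.0143) and at 5000 UMIs (log2 0.59, adjusted p = 0.0274). Over all genes 29% were called, 14.7% higher and 14.3% lower in the MYF5 cells.

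Differentiation genes were lower in cells with MYF5 and no MYOD1. Of 25 early differentiation genes tested, 20 were lower and 1 higher, with a median log2 difference of −1.63 against 0.01 over all genes. CDKN1C, a cell cycle inhibitor, was at 1.39 and 1.47 against 10.1 and 10.4 (log2 −2.85, SE 0.0446, edgeR adjusted p = 3.19e-07), and the fusion gene MYMK (myomaker) was at 0.0496 against 0.300 (log2 −2.60). Of 32 muscle structure genes, 25 were lower and 0 higher, with a median of −1.95, among them the fast troponin TNNI2 (0.0212 against 0.18, log2 −3.08) and the calcium release channel RYR1 (log2 −2.90). The slow troponin TNNI1 was at 0.00122 and 0.00273 against 0.0104 and 0.0366. The transcription factor SOX8 (log2 −3.85) and the corepressor RCOR2 (log2 −2.86, at 0.0369 and 0.0757 in the MYOD1 cells) were also lower. Of 52 G2/M genes, 43 were lower and 0 higher, but by little (median −0.39, HMGB2 −0.65, CDC25C −0.66, G2E3 −0.70). The 42 S phase genes went both ways, with 6 higher, such as WDR76 (0.55) and CDCA7 (0.42), and 4 lower, such as RAD51AP1 (−0.37). For S phase this was no larger a share than the 29% called over all genes.

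Regulators and partners of the factors went both ways between these cells. Of 21 partners and inhibitors, 8 were higher and 9 lower in the MYF5 cells. The E protein TCF12, a dimer partner of the factors, was at 0.768 and 0.742 against 1.65 and 1.64 (log2 −1.13, edgeR adjusted p = 1.69e-05), and TCF3 (−0.43) and TCF4 (−0.28) were lower by less. The inhibitors ID2 and ID3, which bind E proteins, were higher (0.28 and 0.25) and ID1 was lower (−0.30). TWIST2 (1.49) and BHLHE41 (0.90), repressors of the same protein class, were higher. Of 18 MEF2 factors and cofactors, 8 were lower and 2 higher, with MEF2C at −1.95, TEAD4 at −1.39, MEF2D at −1.26 and MEF2A at −0.51. Of 18 upstream regulators, 2 were higher and 5 lower, with DACH1 at 1.29, EYA2 at −1.21 and MEOX2 at −0.92. PAX3 was at 0.0146 and 0.0273 against 0.00739 and 0.0109 (log2 1.18, edgeR adjusted p = 0.0706), and it passed with the library as a block (adjusted p = 0.00263). PAX7 did not pass (log2 0.86, edgeR adjusted p = 0.233).

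The genes with the largest rise in cells with MYF5 and no MYOD1 were RGCC (0.0863 against 0.0168, log2 2.35), the membrane raft gene RFTN1 (2.21), the scaffold gene NEDD9 (2.06), the IGF binding protein IGFBP5 (2.22 and 2.36 against 0.559 and 0.556, log2 2.03, edgeR adjusted p = 2.25e-06) and the prostaglandin receptor PTGER4 (2.01). Markers of fibro-adipogenic cells moved with this comparison, with 8 of 10 tested markers higher, 0 lower and summed levels of 122 and 118 against 65.9 and 67.0. Of 4 pericyte and smooth muscle markers, 3 were higher (9.28 against 6.73). CLDN5, the only endothelial marker tested, was lower (log2 −2.85), and the glial marker S100B was lower by 0.32. Of 2 immune and 1 tendon markers, 0 were called. The part of these cell types in the differences was not tested. The summed fibro-adipogenic markers were highest among the deep clusters in cluster 8 (179 and 173), which gave 27.1% of the MYF5 cells, and were at 56.8 and 58.2 in cluster 9. These sums mostly follow COL1A1 and COL3A1, and PDGFRA was at 0.267 in cluster 8 and 1.58 in cluster 9.

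Among MYOD1-positive cells, those with MYOG (2006 and 1823 cells) were compared with those without (3844 and 3605 cells). The former held 36.3% cells of cluster 3 and 14.4% of cluster 12, the latter 0.0399% of cluster 12. MYF5 was lower in cells with MYOG, at 0.768 and 0.737 UMIs per 10000 against 1.13 and 1.09 (log2 −0.50, SE 0.0475, edgeR adjusted p = 6.42e-04). MYF6 was at 0.101 and 0.0939 against 0.104 and 0.0977 and did not pass (log2 0.02, SE 0.0940, edgeR adjusted p = 0.921). Over all genes 33.2% were called, 16.2% higher (1955 genes) and 16.9% lower (2042 genes). With the library as a block, 6132 genes were called in place of 3997. Scaled by total UMIs without TMM, 1494 were higher and 2740 lower, a share of 35.3% higher in place of 48.9%.

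Of 37 muscle structure genes tested, 34 were higher and 1 lower in cells with MYOG, with a median log2 difference of 3.29 against −0.02 over all genes. The skeletal actin gene ACTA1 was at 2.78 and 2.61 against 0.0846 and 0.0952 (log2 4.97, SE 0.0712, edgeR adjusted p = 1.52e-06). Without clusters 9 and 12, ACTA1 differed by 1.40 (edgeR adjusted p = 3.23e-04), and 25 of 31 structure genes were higher and 1 lower with a median of 1.54. In that fit 2681 of 11931 genes tested were called. MYH2, a fast myosin, was at 0.0110 and 0.00879 in cells with MYOG and at 0.00026 and 0 in cells without, and the calcium store protein gene CASQ2 was at 0.0319 and 0.0258 against 0.0013 and 0. CSRP3 was at 0.0280 and 0.0297 against 0.000781 and 0.000278. Of 26 early differentiation genes, 22 were higher and 1 lower, with LMOD3, an actin nucleator (0.157 against 0.00401, log2 5.34), the muscle creatine kinase CKM (4.96) and MYMK (0.664 against 0.0282, log2 4.62) in front. SMIM5 (0.337 against 0.00861, log2 5.35) and the phosphodiesterase PDE2A (4.99) were the other genes with the largest rise.

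Cell cycle genes were lower in the cells with MYOG. Of 42 S phase genes, 39 were lower and 0 higher (median −0.65, CDC6 −1.22, EXO1 −1.14, CLSPN −1.03), and of 52 G2/M genes, 48 were lower and 1 higher (median −0.58, HJURP −0.85, TOP2A −0.80, KIF20B −0.77). The genes with the largest fall were the interferon-induced IFIT1 (−1.95), FIBIN (−1.67), RFTN1 (−1.65), the growth factor FGF5 (−1.54) and IGFBP5 (0.271 against 0.787, log2 −1.48). Fewer genes differed inside a single cluster. Within cluster 3 alone 183 of 9475 genes tested were called, and MYF5 remained lower (log2 −0.77, edgeR adjusted p = 0.0126). In that fit 10 of 25 structure genes were higher and 1 lower (median 0.77), of 37 S phase genes 0 were called, and of 48 G2/M genes 2 were higher and 0 lower. The S phase and G2/M counts were close to the share called over all genes.

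Partners and cofactors of the factors also differed between MYOD1-positive cells with and without MYOG. Of 18 MEF2 factors and cofactors, 8 were higher and 1 lower, with MEF2C at 0.0584 against 0.00388 (log2 3.95, edgeR adjusted p = 1.36e-04), the acetyltransferase KAT2B at 1.27, MEF2D at 1.21 and MEF2A at 1.00. Of 22 partners and inhibitors, 6 were higher and 11 lower. TCF12 was at 2.28 against 1.2 (log2 1.00, edgeR adjusted p = 5.04e-05) and TCF4 differed by 0.15, whereas ID2 (−0.59), ID3 (−0.56), ID4 (−0.74) and the Notch target HEY1 (0.123 against 0.250, log2 −0.96) were lower. TWIST2 was at 0.0015 and 0.000549 against 0.00573 and 0.00472. Of 18 upstream regulators, 6 were higher and 4 lower, with EYA2 at 1.58, DACH1 at −1.12 and MEOX1 at −0.76. PAX3 did not pass (log2 −0.80, edgeR adjusted p = 0.0823) and passed with the library as a block (0.0388) and without the highest Scrublet scores (log2 −1.26, edgeR adjusted p = 0.0242). PAX7 did not pass (log2 −0.66, edgeR adjusted p = 0.279). Fibro-adipogenic markers were lower for 7 of 11 and higher for 0 (54.5 against 81.7), 1 of 5 pericyte and smooth muscle markers was higher and 2 lower, and 1 of 2 endothelial markers, CLDN5, was higher, a gene found in cluster 12 at 0.220 while the defining endothelial marker PECAM1 had 0 UMIs there. S100B was higher by 0.33, 1 tendon marker was lower and 0 of 2 immune markers were called. Their part in the differences was not tested.

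MYOG-positive cells with MYOD1 (2006 and 1823, the same cells as above) were compared with the 202 and 191 MYOG-positive cells without MYOD1. These few cells came from cluster 9 (18.8%), cluster 5 (18.6%), cluster 8 (15.3%), cluster 4 (13.2%) and cluster 12 (10.7%). Clusters 5, 8 and 4 are among those where MYOG lay close to its share in cluster 9. MYF6 was higher with MYOD1, at 0.101 and 0.0939 against 0.0594 and 0.0367 (log2 1.07, SE 0.273, edgeR adjusted p = 0.0302), and MYF5 was lower, at 0.768 and 0.737 against 1.16 and 0.911 (log2 −0.41, SE 0.107, edgeR adjusted p = 0.0328). Neither call held with DESeq2 (adjusted p = 0.132 and 0.0681), and with cells thinned to 5000 UMIs the signs turned (log2 −0.21 and 0.09). Without clusters 9 and 12 the call of MYF6 was lost (edgeR adjusted p = 0.0859). Over all genes 19.6% were called, 8.77% higher and 10.8% lower with MYOD1.

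Of 25 early differentiation genes, 17 were higher in MYOG cells with MYOD1 and 2 lower. CDKN1C was at 18.5 against 6.2 (log2 1.64, edgeR adjusted p = 5.35e-06), the receptor clustering gene DOK7 rose by the same log2 difference, and brain creatine kinase CKB fell (0.550 against 1.78, log2 −1.64). Of 34 structure genes, 11 were higher and 1 lower, with NEB, nebulin, at 5.52 against 2.34 (log2 1.30), TNNI2 at 1.44 and the light chain MYL2 at 2.54. At 5000 UMIs per cell the signs of TNNI2 (−0.21) and MYL2 (−1.60) turned. The largest rises also included SCN7A (3.10), SOX8 (2.93), CXCL10 (2.41) and B3GALT2 (0.390 against 0.0917, log2 2.14). The largest falls were the chemokine CCL2 (0.102 against 1.19, log2 −3.49), the activin subunit INHBA (−3.30), SFRP2 (−3.17), CD248 (−3.13) and CXCL5 (0.226 against 2.07, log2 −3.13). Fibro-adipogenic markers were lower for 8 of 10 (54.5 against 92.9) and pericyte markers for 2 of 4, CLDN5 was higher, and 0 of 1 immune, 1 glial and 1 tendon marker were called. Their part was not tested. Of 41 S phase genes, 25 were lower and 0 higher (CDC6 −1.25, HELLS −1.11, CLSPN −1.0), while of 52 G2/M genes 5 were higher and 3 lower (G2E3 1.29, LBR −0.50, CENPA −0.46). For G2/M this was no larger a share than the 19.6% called over all genes.

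Among the regulators, TCF12 (0.95), MEF2D (1.14), MEF2A (0.66), SMARCD3 (0.99), VGLL3 (0.77), TCF4 (0.40) and MEOX2 (0.81) were higher in MYOG cells with MYOD1. Lower were DACH1 (−2.29), BHLHE41 (−1.75), TWIST1 (−1.39), SNAI2 (0.317 against 0.751, log2 −1.19), MEOX1 (−1.08), ID2 (−0.65) and ID3 (−0.36). In all, 5 of 18 MEF2 factors and cofactors were higher and 0 lower, 6 of 20 partners were higher and 8 lower, and 2 of 16 upstream regulators were higher and 2 lower. For the upstream regulators this was near the 19.6% called over all genes. PAX3 did not pass (log2 −0.42, edgeR adjusted p = 0.763). At 5000 UMIs per cell 235 of 9665 genes tested were called. Of 24 early differentiation genes 4 were higher and 1 lower, and of 33 structure genes 0 were higher and 3 lower.

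MYOG-positive cells with MYF6 (179 and 161 cells) and without it (2029 and 1853 cells) differed in 1 of 10876 genes (0.00919%) by edgeR's quasi-likelihood test, and 517 genes (4.75%) had an unadjusted p under 0.05. DESeq2 called 16 genes and edgeR with the library as a block called 74. The called gene was ACTA1, at 7.75 and 5.74 UMIs per 10000 with MYF6 and 2.21 and 2.30 without (log2 1.60, SE 0.122, edgeR adjusted p = 0.0116). It lost its call without clusters 9 and 12 (log2 0.43, edgeR adjusted p = 0.999). The other 33 structure genes tested were not called, whereas 21 of the 34 were called higher with the library as a block and 11 with DESeq2. The median of all 34 was 0.75, which came to 0.06 over 28 genes without these clusters. MYF5 was at 1.07 and 0.845 against 0.780 and 0.745 (log2 0.34, SE 0.110, edgeR adjusted p = 0.970), and it passed with the library as a block (adjusted p = 0.0458). MYOD1 was at 5.12 and 5.56 against 5.81 and 5.34 (log2 −0.05, edgeR adjusted p = 1.00). Of the other lists, 0 genes were called, and with the library as a block 6 of 25 early differentiation genes and 2 of 52 G2/M genes were higher. The fibro-adipogenic markers summed to 59.1 and 58.0.

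**Figure D5:**
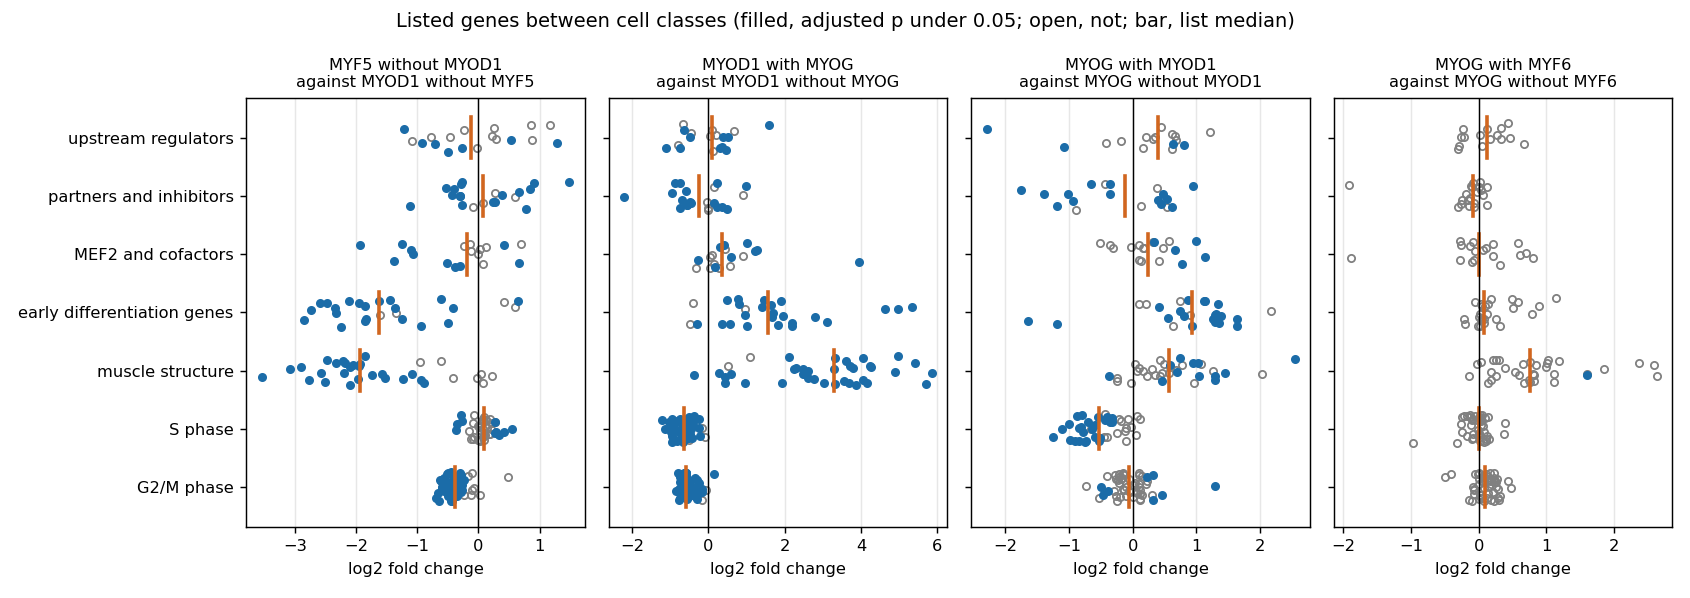
Log2 difference of each tested list gene in the 4 comparisons of cell groups, with filled points for genes called at an adjusted p under 0.05, open points for others and an orange bar for the list's median. The structure list has medians of −1.95 in MYF5 cells without MYOD1 and 3.29 in MYOD1 cells with MYOG, while 1 structure gene is called for MYF6.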

How the data were processed

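The measurements were 2 10x Genomics 3′ libraries of the same cells, with 145631299 UMIs in replicate 1 and 137818568 in replicate 2. The authors aligned reads to ARS-UCD1.2 and counted UMIs with Cell Ranger 3.0.2, and the deposited UMI counts are whole numbers with both libraries combined at equal read depth. The submitters' processing notes also name edgeR. The authors further deposited, per cluster, average UMI counts scaled to a common total, with log2 fold changes and p-values of each cluster against all other cells. The fold changes and p-values were not used. The number of sample columns left unused was 0. The library of a cell was read from its barcode's ending, and its cluster was solved from the deposited averages, which the sums then met for all 252240 pairs of gene and cluster. ARS-UCD2.0 served only for neighbouring genes, and sequences were not used here.

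Levels, joint detection, thinning to 10000 UMIs and sums per cell group were computed in Python 3.11.15. Sums were compared with edgeR 4.0.16 (quasi-likelihood, TMM, filterByExpr) in R 4.3.3, with at least 50 cells per group and library. On simulated counts with 200 genes changed 2-fold, 83.4%, 85.9%, 75.0% and 70.2% were recovered in the 4 comparisons in the order given, over 11539, 12022, 10887 and 10843 genes tested. False calls numbered 6, 4, 5 and 7. The changed genes were drawn above a floor of UMIs, all genes had the same dispersion, and no library effect was simulated. These shares are therefore not those of the real tests. The sums of both groups in a library hold different cells but share its preparation and sequencing, so the library pairs them. The differences between libraries, as log2 ratios, correlated between both groups of a comparison with r = 0.478, 0.598, 0.325 and 0.322 over 9309, 10324, 6710 and 6165 genes. The fit without a block is the one reported.

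The 4 factors and all gene lists were chosen with earlier results of these data known. The genes named are the factors, the 5 called genes with the largest difference in each direction (200 UMIs or more, the same direction in both libraries), the 3 largest called genes of each list, PAX3, PAX7, and called E protein, ID and MEF2 genes. List genes were counted per identifier, and ZEB2 and ATAD2 have 2 each. Alternatives were DESeq2 1.42.0, total UMIs without TMM, no filter, the library as a block, 5000 UMIs, leaving out the 8% highest Scrublet scores (scanpy 1.11.5) or cells under 2000 UMIs, 20 strata or none, at least 2 UMIs, cluster 3 alone and each library alone. Leaving out cluster 9, leaving out clusters 9 and 12, keeping the 7 clusters the study calls myogenic (1 to 5, 8 and 12) and thinning within clusters were added after the data had been seen. With 2 libraries no outlying sample could be searched for.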

Additional observations from a re-analysis of the deposited data

How the results depend on the processing

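The ratios of joint detection depended on the strata and on the UMIs asked for. In the order MYF5 with MYOD1, MYF5 with MYOG, MYF5 with MYF6, MYOD1 with MYOG, MYOD1 with MYF6 and MYOG with MYF6, they were 1.10, 1.02, 1.36, 1.19, 1.15 and 1.16 without strata, where deeper cells hold more of every gene, so that MYF5 with MYOG turned above 1. They were 0.998, 0.956, 1.11, 1.02, 0.999 and 0.983 with depth groups within clusters, 0.981, 0.879, 1.10, 1.09, 1.01 and 0.972 in the 7 myogenic clusters, 0.984, 0.899, 1.11, 1.09, 1.01 and 0.962 without cluster 9, and 0.995, 0.913, 1.14, 1.02, 0.997 and 0.922 thinned within clusters. MYF5 with MYOD1 turned below 1 in these 4 settings, and MYOD1 with MYF6 in the first and the last of them. The cause was not tested. At 10000 UMIs, MYF5 with MYOG was 0.863, MYOD1 with MYOG 1.18 and MYOG with MYF6 0.948, beside 0.920 for MYOG with POLR2A. Without the highest Scrublet scores, MYF5 with MYOG was 0.924, MYF5 with MYF6 1.2 and MYOD1 with MYOG 1.13. With at least 2 UMIs, the pairs after the first gave 0.789, 1.47, 1.31, 1.13 and 1.09. Leaving out a library gave 1.02 to 1.03, 0.928 to 0.939, 1.17 to 1.19, 1.12 to 1.12, 1.05 to 1.06 and 0.984 to 1.04.

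MYOD1 in cluster 13 was 6.19 without cells under 2000 UMIs, and MYOG in cluster 12 was 19.5 with cells weighted equally. From 0 to 8 or more MYOG UMIs, the log2 difference was −1.33 at 5000 UMIs and −1.22 without the highest Scrublet scores for MYF5, 0.56 and 0.72 for MYOD1, and −0.37 at 5000 UMIs for MYF6.

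Calls between MYF5 and MYOD1 cells numbered 2056 with DESeq2 and 2098 at 5000 UMIs, in place of 3363. Between MYOD1 cells with and without MYOG they numbered 6132 with the library as a replicate block and 183 in cluster 3 alone, in place of 3997. For MYOG cells with and without MYOD1 they numbered 1356 with DESeq2 and 235 at 5000 UMIs, in place of 2157, and for MYOG cells with and without MYF6 12 without a filter, 74 with the block, 16 with DESeq2, 10 at 5000 UMIs, 8 without the highest Scrublet scores and 0 without clusters 9 and 12 (edgeR, 396 genes at an unadjusted p under 0.05), in place of 1. The block called 5038 and 2868 genes in the first and the third comparison, and over the 4 comparisons it shared 3363, 3997, 2155 and 1 of the calls made without it. Of the genes named, the block changed no call other than the 4 gains given with PAX3, MYF6 and MYF5. The other 3 comparisons could not be fitted in cluster 3 alone, which left fewer than 50 cells in a group. The signs of CLSPN (0.018), HJURP (0.83), TOP2A (0.34) and TCF4 (−0.11) turned in cluster 3 alone, and those of MYL2 (−1.60), TNNI2 (−0.21), CENPA (0.23), MYF6 (−0.21) and MYF5 (0.093) at 5000 UMIs in MYOG cells with and without MYOD1. Of the other values (single genes, levels and counts by direction) over all alternatives, 1205 counted as unchanged. These kept the side of the threshold or, without a test, stayed within the spread of the libraries or, for counts, within 1.5 times. Values that turned sign without a call in either fit were counted among them. Levels with 1 library left out were too, since with 2 libraries they cannot move beyond that spread. Another 82 lost the call in the same direction, 6 gained it and 9 turned sign with a call. A further 154, without a test, moved by more than the spread of the libraries or, for counts, by over 1.5 times. RCOR2 lost its call at 5000 UMIs. Depth limits MYF6 most, with 2640 UMIs in all cells.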
